A study of Mus musculus with 12 samples.

Results

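The expression of genes for cell division and for DNA replication was described in granulocyte-monocyte precursors (GMPs) of 4 Gfi1 genotypes. A list of 42 genes, 20 that act in mitosis and 22 that act in DNA replication, was taken by symbol, and each gene was given the median of the log2 signals of its probe sets. A value was found for 41 of the 42 genes, among 14179 genes with a value in all, and these 41 genes rest on 595 of 105661 probe sets. Cyclin B1 (Ccnb1) is not analysed here, which leaves 19 mitotic and 22 replication genes.

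GMPs, the bone marrow progenitors of granulocytes and monocytes, were sorted by flow cytometry from C57BL/6 mice, and total RNA was amplified and hybridised to Affymetrix Mouse Gene 1.0 ST arrays. There were 12 arrays, 3 per genotype. The study asked which genes respond to a variant of human GFI1 in a mouse model, in relation to acute myeloid leukaemia. The WT mice carried mouse Gfi1, the KO mice were Gfi1 knock-out, the wtKI mice were human Gfi1 knock-in with its common form, and the SNP mice were human Gfi1-SNP knock-in, with the variant form. All groups shared strain, tissue, sort and RNA handling, no source used here gives the age or sex of the mice, and no label states that replicate arrays came from separate mice. The p-values therefore measure only sample-to-sample spread, which may be technical.

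A dividing cell first copies its DNA and then separates the copies. Before S phase, Cdc6 and Cdt1 load the ring of Mcm2 to Mcm7 onto origins, Cdc45 and the GINS complex turn that ring into the active helicase, and polymerase alpha with primase, the clamp Pcna, its loader RFC and the nucleotide-making enzymes carry out synthesis. Mitotic genes peak later, under Cdk1 with its A- and B-type cyclins, when the spindle and its checkpoint act. In textbook accounts replication genes are switched on by E2F factors at the start of S phase, and mitotic genes through CHR and CCAAT elements in G2. Myeloid progenitors such as GMPs are known to cycle actively. In sorted bulk samples, fewer cells of a type and less RNA per cell cannot be told apart.

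Promoter sequence was examined because the replication and the mitotic genes form separate classes in these textbook accounts. RefSeq promoters on GRCm38.p6, from 250 bases before to 50 bases after the start, were found for 34 of the 41 measured genes (35 promoters, since Mcm7 has 2). Both strands were searched for the E2F letters TTTCCCGC, TTTGGCGC, TTTCGCGC or TTTGCCGC, for the CHR letters TTTGAA or TTCGAA, and for the CCAAT box letters CCAAT. An E2F match was found in 8 of 19 promoters of replication genes (42.1%), in 1 of 16 promoters of mitotic genes (6.25%) and in 3.57% of the 14388 promoters of all measured genes. A CHR match was found in 13 of 16 mitotic promoters (81.2%), 4 of 19 replication promoters (21.1%) and 14.4% of the promoters of all measured genes. CCAAT occurred in both classes, in 14 of 16 mitotic promoters (87.5%) and 14 of 19 replication promoters (73.7%), against 37.1% of the promoters of all measured genes. The E2F share was thus higher in the replication class and the CHR share in the mitotic class, while CCAAT did not separate them. A match is a description of letters and not a binding site. Ccna2, Aurkb, Tpx2, Ccne2, Mcm4, Gins1 and Gins2 have no entry in the promoter table.

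Stretches of 160 bases directly upstream of the start show these letters in genes whose values are given in the following paragraphs. Each is printed 5′ to 3′ on the strand of its gene. In the replication genes Mcm5 (chr8:75109349-75109508, plus strand), Mcm6 (chr1:128359706-128359865, minus strand) and Cdc6 (chr11:98907991-98908150, plus strand), the capitals mark E2F matches. Matches on opposite strands overlap in Mcm5 and in the first run of Mcm6.

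Mcm5: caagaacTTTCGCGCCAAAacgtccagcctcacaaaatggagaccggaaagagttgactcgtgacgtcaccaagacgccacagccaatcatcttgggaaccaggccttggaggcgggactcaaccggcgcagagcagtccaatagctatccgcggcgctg

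Mcm6: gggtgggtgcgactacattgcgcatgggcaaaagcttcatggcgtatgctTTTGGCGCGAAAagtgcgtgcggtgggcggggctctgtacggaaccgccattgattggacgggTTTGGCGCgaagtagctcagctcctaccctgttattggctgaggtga

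Cdc6: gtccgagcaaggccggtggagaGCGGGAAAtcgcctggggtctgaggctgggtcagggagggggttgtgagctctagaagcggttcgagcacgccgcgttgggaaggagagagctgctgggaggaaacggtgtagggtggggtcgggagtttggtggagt

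In the mitotic genes Cdc20 (chr4:118437344-118437503, minus strand), Cdk1 (chr10:69352913-69353072, minus strand) and Mki67 (chr7:135716380-135716539, minus strand), the capitals mark CHR matches, and in Cdk1 also the E2F match TTTCGCGC, the only E2F match among the 16 mitotic promoters.

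Cdc20: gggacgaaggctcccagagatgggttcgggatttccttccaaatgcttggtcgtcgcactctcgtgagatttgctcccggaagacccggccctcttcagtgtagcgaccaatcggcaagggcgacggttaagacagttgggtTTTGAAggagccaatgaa

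Cdk1: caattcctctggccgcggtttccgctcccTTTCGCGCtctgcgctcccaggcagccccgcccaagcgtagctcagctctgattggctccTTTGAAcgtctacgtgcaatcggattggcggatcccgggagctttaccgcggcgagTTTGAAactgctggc

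Mki67: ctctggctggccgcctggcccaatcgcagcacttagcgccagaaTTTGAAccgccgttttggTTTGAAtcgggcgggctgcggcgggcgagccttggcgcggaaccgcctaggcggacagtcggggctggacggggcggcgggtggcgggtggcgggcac

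Arrays KO 1 and SNP 1 stood apart from the other 10. Their median correlation with the other arrays over all genes was 0.747 and 0.611, against 0.861 to 0.908 for the rest, and the median SD between probe sets of 1 gene was 0.82 and 0.80 (log2) on them, against 0.33 to 0.49. Markers of GMPs were detected in all groups, with Mpo between 10.8 and 11.6, but over 10 GMP markers the mean level from the WT mean was -1.43 on SNP 1, with 9 of 10 below the WT mean, and -0.43 on KO 1, against -0.29 to 0.06 on the other arrays. On SNP 1 all 14 late neutrophil, all 11 erythroid and all 8 B-lineage markers were above the WT mean, by means of 3.87, 3.55 and 3.56, and on KO 1 the means of the same lists were -0.06, 1.04 and 1.08. On SNP 2 and SNP 3 the late neutrophil and erythroid means lay between -0.41 and 0.38, and the B-lineage means were 0.47 and 0.69, with 5 and 7 of 8 markers above the WT mean, against -0.02 to 0.03 on WT. None of the markers is listed at 0 on any array. The 10 mast cell, basophil and eosinophil markers had means of 0.93 to 1.37 on the KO arrays and -0.28 to 0.49 on the WT arrays. The 9 stem and early progenitor markers had means of 0.44 to 0.52 on KO and 0.29 to 1.22 on wtKI, against -0.10 to 0.14 on WT, and the late neutrophil means were -0.77 and -1.18 on KO 2 and KO 3. The levels of 3 Y-linked genes were also unequal between genotypes: their mean from the WT mean was -3.29 on WT 3 and -3.29 and -3.06 on wtKI 2 and wtKI 3, against 1.25 to 2.15 on the other 9 arrays, among them every KO and SNP array. The 5th percentile of the probe sets was 4.36 on SNP 1 and 4.39 on KO 1, against 5.30 to 5.65 on the other arrays. Gfi1 itself was at 5.59, 5.78 and 6.29 in WT, 6.43, 6.74 and 6.58 in KO, 6.28, 5.93 and 6.27 in wtKI, and 6.65, 6.54 and 6.61 in SNP, and was not lower in the arrays labelled KO. Where its 5 probe sets lie relative to the deletion is not known, so they do not check that label. The class counts and medians of each comparison that uses KO 1 or SNP 1, and the SNP minus WT differences of most members, are given with and without these arrays.

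The classes were first compared on each array as the mean log2 difference of their genes from the WT mean. On WT 1 to WT 3 the mitotic genes lay at 0.05, -0.06 and 0.00 and the replication genes at 0.10, -0.13 and 0.03. In KO the mitotic genes lay at -0.32, -0.07 and -0.05 and the replication genes at -0.56, -0.08 and -0.06, so KO 1 alone was far from WT. In wtKI the mitotic genes lay at -0.29, -0.00 and -0.32 and the replication genes at -0.11, -0.11 and -0.33. In SNP the replication genes lay at -0.93, -0.14 and -0.43 and the mitotic genes at -0.40, -0.03 and -0.41. SNP 1 had the lowest replication level, KO 1 the next, and SNP 2 lay above wtKI 3.

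Both classes had group means below WT in KO, wtKI and SNP, and the SNP group was lowest in both. The mitotic mean was -0.15 ± 0.15 in KO, -0.21 ± 0.18 in wtKI and -0.28 ± 0.22 in SNP (SD, n = 3), and the replication mean was -0.23 ± 0.28, -0.18 ± 0.13 and -0.50 ± 0.40. Replication genes lay below mitotic genes by 0.53 on SNP 1 and by 0.24 on KO 1, above them by 0.19 on wtKI 1, and within 0.11 of them on every other array. In class means the wider gap was therefore found on the arrays that stood apart, where the markers of other cell types were also high. The part of these markers in it was not tested. In class medians replication minus mitotic was -0.73 on SNP 1, -0.19 on SNP 2, -0.16 on KO 1 and -0.15 on wtKI 2. On SNP 3 and wtKI 1 it was 0.14 and 0.11. SNP 1 had the lowest value of all 12 arrays in 14 of 22 replication genes and in 5 of 19 mitotic genes, beside 23.8% of all genes. The median within-group SD was 0.39 for replication genes, 0.22 for mitotic genes and 0.36 for all genes, and without KO 1 and SNP 1 it was 0.24, 0.19 and 0.28.

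**Figure D1:**
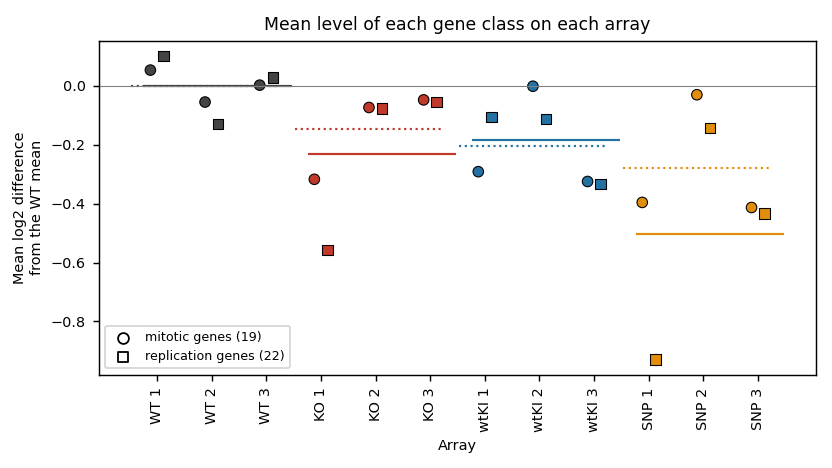
Mean log2 difference from the WT mean (vertical axis) of the 19 mitotic genes (circles) and the 22 replication genes (squares) on each of the 12 arrays, with the group means as dotted and solid lines. The squares of SNP 1 at -0.93 and KO 1 at -0.56 lie lowest, while on most other arrays circle and square lie close together.

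**Figure D2:**
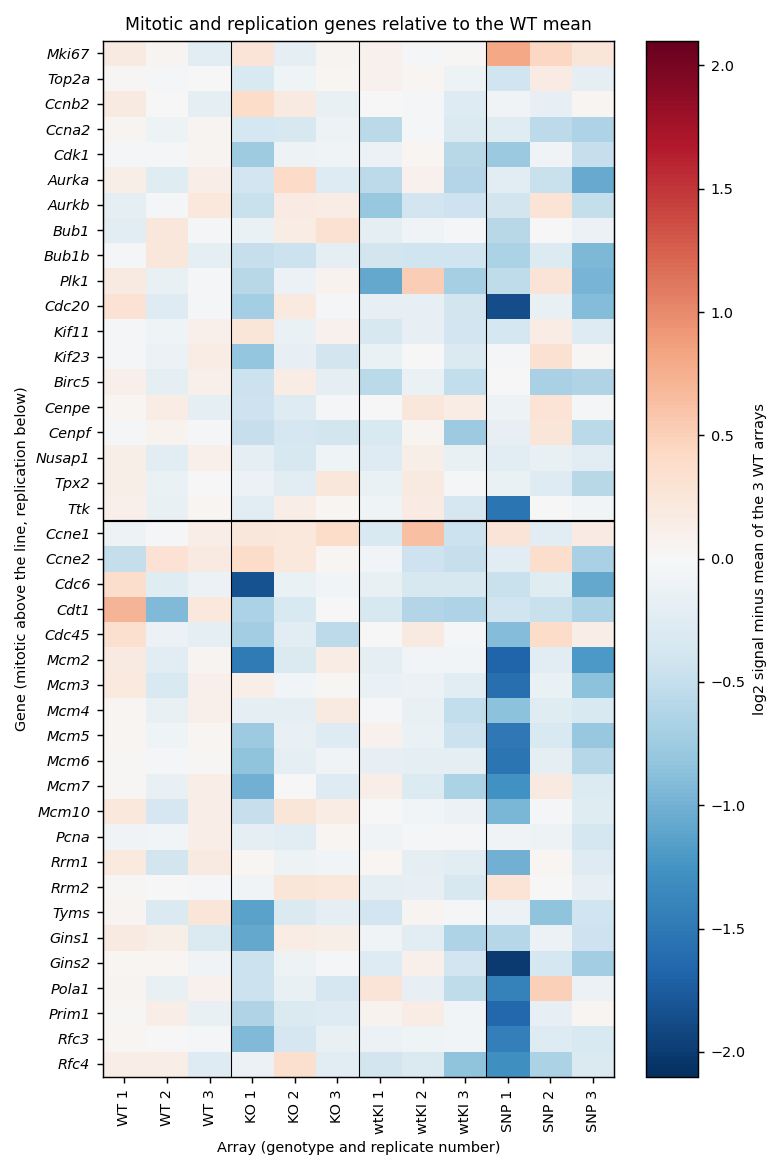
Log2 signal of each of the 41 genes on each of the 12 arrays minus its mean over the 3 WT arrays, coloured from blue (lower) to red (higher), with mitotic genes above the line and replication genes below. The columns of SNP 1 and KO 1 are blue for most replication genes, and Mki67 is the reddest row in the SNP columns.

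The members are described by role, with values always in the order of replicates 1, 2 and 3 of a group and differences on the log2 scale with their standard error (SE) from one limma fit of all 12 arrays. No member passed an adjusted p of 0.05 in any of the 6 comparisons, so the differences below describe levels and are not calls. Adjusted p-values are Benjamini-Hochberg values over 14179 genes.

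Origin licensing genes were lower in SNP than in WT on average. Cdc6, which loads the helicase onto origins, was at 9.03, 8.41 and 8.54 in WT, 6.82, 8.52 and 8.59 in KO, 8.49, 8.33 and 8.32 in wtKI, and 8.20, 8.40 and 7.58 in SNP. All SNP values lay below all WT values, the single lowest value was on KO 1, and SNP minus WT was -0.60 ± 0.42 (limma adjusted p = 0.482). Cdt1, its partner in loading, was at 7.67, 6.04 and 7.19 in WT, 6.30, 6.65 and 6.95 in KO, 6.63, 6.35 and 6.32 in wtKI, and 6.55, 6.51 and 6.33 in SNP. The WT arrays themselves spanned the whole range of Cdt1, so its SNP minus WT difference of -0.51 ± 0.35 (limma adjusted p = 0.481) lay within their spread. With KO 1 and SNP 1 left out the differences were -0.67 ± 0.27 for Cdc6 and -0.55 ± 0.39 for Cdt1.

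The subunits of the replicative helicase ring held the largest differences of the replication class beside Gins2. Mcm2 was at 8.69, 8.26 and 8.56 in WT, 7.01, 8.20 and 8.65 in KO, 8.31, 8.45 and 8.44 in wtKI, and 6.82, 8.27 and 7.29 in SNP. KO 1, SNP 1 and SNP 3 were low and SNP 2 was inside the WT range, so the groups overlapped and SNP minus WT was -1.04 ± 0.42 (limma adjusted p = 0.307). Mcm3 was at 8.96, 8.43 and 8.85 in WT, 8.89, 8.69 and 8.77 in KO, 8.60, 8.62 and 8.53 in wtKI, and 7.17, 8.62 and 7.88 in SNP. Here KO 1 was not low: SNP 1 and SNP 3 lay under every other array, SNP 2 did not, and SNP minus WT was -0.86 ± 0.31 (limma adjusted p = 0.290). Leaving out KO 1 and SNP 1 gave smaller differences, -0.72 ± 0.29 for Mcm2 and -0.50 ± 0.25 for Mcm3.

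Mcm5, another subunit of the ring, was at 9.07, 8.95 and 9.08 in WT, 8.27, 8.88 and 8.77 in KO, 9.13, 8.89 and 8.58 in wtKI, and 7.53, 8.71 and 8.23 in SNP. All 3 SNP values lay below all 3 WT values, with a difference of -0.87 ± 0.29 (limma adjusted p = 0.276). Mcm6 was at 10.27, 10.21 and 10.27 in WT, 9.40, 10.05 and 10.17 in KO, 10.08, 10.06 and 10.06 in wtKI, and 8.71, 10.05 and 9.65 in SNP. The WT and wtKI values of Mcm6 were each within a narrow range, the SNP values lay below both, and SNP minus WT was -0.78 ± 0.31 (limma adjusted p = 0.306). Mcm4 and Mcm7, which complete the ring, differed between SNP and WT by -0.48 ± 0.23 and -0.45 ± 0.37, both lowest on SNP 1, with limma adjusted p = 0.345 and 0.548. The differences on the 10 arrays without KO 1 and SNP 1 were -0.56 ± 0.22 for Mcm5, -0.40 ± 0.18 for Mcm6, -0.29 ± 0.21 for Mcm4 and -0.050 ± 0.26 for Mcm7.

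The lower level in SNP was seen in nearly all probe sets of these genes. The mean of the SNP arrays was below that of the WT arrays in 16 of 16 probe sets of Mcm2, 16 of 16 of Mcm3, 17 of 19 of Mcm5 and 16 of 17 of Mcm6. Without SNP 1 the counts were 16, 15, 15 and 15. For Mcm4 it was 15 of 16 both with and without SNP 1, and for Mcm7 6 of 6 with SNP 1 but 3 of 6 without it. Probe sets of a gene share the same RNA and are not replicates.

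Genes that activate the helicase differed among themselves. Gins2, a subunit of GINS, was at 9.64, 9.63 and 9.53 in WT, 9.15, 9.50 and 9.58 in KO, 9.32, 9.71 and 9.20 in wtKI, and 7.59, 9.24 and 8.87 in SNP. SNP 1 was more than a log2 unit below every other array, the other SNP values were also below all WT values, and SNP minus WT was -1.03 ± 0.35 (limma adjusted p = 0.279), with all 4 probe sets lower. Cdc45 was at 9.18, 8.73 and 8.65 in WT, 8.13, 8.61 and 8.30 in KO, 8.86, 9.04 and 8.83 in wtKI, and 7.95, 9.23 and 8.99 in SNP. It was lowest on SNP 1 but highest on SNP 2, and the KO values lay below all WT values, with KO minus WT at -0.50 ± 0.31 (limma adjusted p = 0.9999). Gins1 and Mcm10, an initiation factor, differed between SNP and WT by -0.38 ± 0.33 and -0.41 ± 0.28, with overlapping groups. Leaving out KO 1 and SNP 1, Gins2 differed by -0.55 ± 0.21, Gins1 by -0.27 ± 0.23 and Mcm10 by -0.14 ± 0.21, and Cdc45, at -0.13 ± 0.31 over 12 arrays, was on the other side at 0.26 ± 0.22.

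At the fork, the clamp loader subunits Rfc3 and Rfc4 were lower in SNP and the clamp itself differed little. Rfc3 was at 8.63, 8.60 and 8.56 in WT, 7.67, 8.24 and 8.44 in KO, 8.48, 8.50 and 8.53 in wtKI, and 7.17, 8.33 and 8.28 in SNP. Its KO, wtKI and SNP values all lay below the 3 WT values, most of all on SNP 1 and KO 1, and SNP minus WT was -0.67 ± 0.30 (limma adjusted p = 0.337). Rfc4 was at 8.63, 8.62 and 8.21 in WT, 8.36, 8.83 and 8.24 in KO, 8.10, 8.19 and 7.63 in wtKI, and 7.20, 7.83 and 8.18 in SNP. Both knock-in groups lay below WT without overlap, by -0.51 ± 0.28 in wtKI and -0.75 ± 0.28 in SNP (limma adjusted p = 0.9998 and 0.299). The SNP minus WT differences on the 10 arrays were -0.29 ± 0.16 for Rfc3 and -0.48 ± 0.26 for Rfc4.

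Pcna, the sliding clamp, was at 11.01, 11.02 and 11.22 in WT, 10.89, 10.85 and 11.12 in KO, 11.02, 11.04 and 11.04 in wtKI, and 11.01, 10.98 and 10.71 in SNP. Its values spanned 0.51 over the 12 arrays and SNP minus WT was -0.18 ± 0.18 (limma adjusted p = 0.602), although the SNP values did not overlap the WT values. The catalytic subunit of polymerase alpha, Pola1, and the primase subunit Prim1 were each lowest on SNP 1, at 7.48 and 7.69, while SNP 2 and SNP 3 lay between 8.79 and 9.41 in both, and SNP minus WT was -0.35 ± 0.40 and -0.59 ± 0.36. Both rested on SNP 1: on the 10 arrays the direction of Pola1 turned, to 0.19 ± 0.27, and Prim1 was at -0.068 ± 0.18, while Pcna was at -0.24 ± 0.18.

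Among the nucleotide-making enzymes, the subunits of ribonucleotide reductase did not go together. Rrm2, the small subunit, was at 9.93, 9.91 and 9.89 in WT, 9.84, 10.15 and 10.13 in KO, 9.70, 9.74 and 9.58 in wtKI, and 10.20, 9.92 and 9.73 in SNP. SNP minus WT was 0.04 ± 0.19, its highest value was on SNP 1, and the wtKI values were below those of WT and of KO without overlap. Rrm1, the large subunit, was lowest on SNP 1 at 8.46, and its SNP minus WT difference was -0.41 ± 0.27 with 20 of 20 probe sets lower. Tyms, thymidylate synthase, was at 9.33, 8.97 and 9.52 in WT, 8.15, 8.97 and 9.07 in KO, 8.87, 9.33 and 9.23 in wtKI, and 9.15, 8.43 and 8.85 in SNP. Its lowest value was on KO 1 and its next on SNP 2, and KO minus WT was -0.54 ± 0.29 (limma adjusted p = 0.9999) over only 3 probe sets. On the 10 arrays SNP minus WT was -0.082 ± 0.17 for Rrm2, turned in direction, -0.12 ± 0.23 for Rrm1 and -0.63 ± 0.24 for Tyms, and KO minus WT was -0.25 ± 0.24 for Tyms.

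The E-type cyclins, which drive entry into S phase, did not follow the helicase genes. Ccne2 was at 7.61, 8.42 and 8.30 in WT, 8.49, 8.33 and 8.15 in KO, 8.05, 7.67 and 7.62 in wtKI, and 7.88, 8.48 and 7.42 in SNP. WT 1 was as low as the lowest wtKI array, and KO was above wtKI without overlap by 0.54 ± 0.30 (limma adjusted p = 0.9997). Ccne1 differed between SNP and WT by 0.08 ± 0.27, and in KO its values lay above those of WT without overlap, by 0.28 ± 0.27. Its SNP minus WT difference on the 10 arrays was -0.026 ± 0.30, turned in direction.

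**Figure D3:**
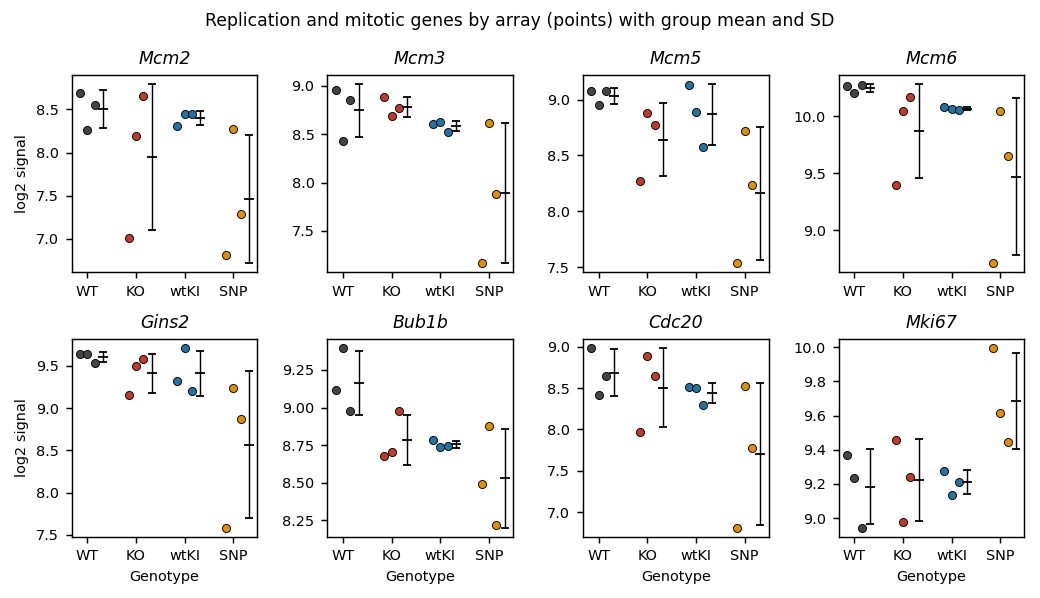
Log2 signal (vertical axis, a separate scale for each gene) of 5 replication genes and 3 mitotic genes on each array, by genotype, with the group mean and SD (n = 3) to the right of the points. In Mcm2, Mcm3, Mcm5, Mcm6 and Gins2 SNP 1 (the left point of its group) is lowest of the SNP points and SNP 2 the highest, whereas Mki67 is higher in SNP than in WT without overlap.

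Mki67, the gene of the proliferation marker Ki-67, went against the replication genes in SNP. It was at 9.37, 9.24 and 8.95 in WT, 9.45, 8.98 and 9.24 in KO, 9.28, 9.14 and 9.21 in wtKI, and 9.997, 9.62 and 9.45 in SNP. All 3 SNP values lay above all WT and all wtKI values, by 0.50 ± 0.21 and 0.48 ± 0.21 (limma adjusted p = 0.319 and 0.554), and SNP 1, the array lowest in most replication genes, was the highest of all 12. In all 16 probe sets of Mki67 the SNP mean was above the WT mean, and without SNP 1 this held in 12 of 16, where the difference of the gene value was 0.35 ± 0.19. Top2a, the topoisomerase that untangles chromosomes, was at 10.18, 10.11 and 10.16 in WT, 9.83, 10.07 and 10.19 in KO, 10.23, 10.20 and 10.05 in wtKI, and 9.73, 10.32 and 9.95 in SNP. It differed little, with SNP minus WT at -0.15 ± 0.20 (limma adjusted p = 0.706), and -0.015 ± 0.18 on the 10 arrays.

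The mitotic kinase and its cyclins were slightly lower in SNP. Cdk1 was at 9.19, 9.18 and 9.28 in WT, 8.48, 9.12 and 9.15 in KO, 9.10, 9.25 and 8.63 in wtKI, and 8.44, 9.15 and 8.73 in SNP. The SNP values lay below all WT values, SNP 2 only just, and KO 1 and wtKI 3 were as low as the lower SNP arrays, with SNP minus WT at -0.45 ± 0.26 (limma adjusted p = 0.409). Ccna2, cyclin A2, was at 10.10, 9.94 and 10.10 in WT, 9.69, 9.72 and 9.94 in KO, 9.48, 10.01 and 9.75 in wtKI, and 9.79, 9.50 and 9.40 in SNP. In this gene SNP 1 was the highest SNP array, all SNP values lay below all WT values, and the difference was -0.48 ± 0.20 (limma adjusted p = 0.312). Taking the brightest of its 8 probe sets in place of the median turned this direction, to 0.02. Ccnb2, cyclin B2, differed by only -0.06 ± 0.20. With the 10 arrays Cdk1 differed by -0.28 ± 0.22 and Ccna2 by -0.60 ± 0.20.

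Spindle checkpoint genes were lower in SNP to different degrees. Bub1b, a checkpoint kinase-like protein at the kinetochore, was at 9.11, 9.40 and 8.98 in WT, 8.68, 8.71 and 8.98 in KO, 8.78, 8.74 and 8.74 in wtKI, and 8.49, 8.88 and 8.22 in SNP. It had the smallest p of all members in SNP against WT, with no overlap and a difference of -0.63 ± 0.21 (limma adjusted p = 0.275), and its wtKI values also lay below WT, by -0.41 ± 0.21. With the brightest of its 23 probe sets the SNP difference was 0.07. Cdc20, which activates the anaphase-promoting complex, was at 8.99, 8.42 and 8.65 in WT, 7.97, 8.89 and 8.65 in KO, 8.51, 8.51 and 8.30 in wtKI, and 6.82, 8.53 and 7.77 in SNP. SNP 1 and KO 1 were low and SNP 2 was not, so that the groups overlapped and SNP minus WT was -0.98 ± 0.38 (limma adjusted p = 0.304). The checkpoint kinases Bub1 and Ttk differed by -0.23 ± 0.22 and -0.52 ± 0.35, and for Ttk the value on SNP 1 was 6.98 while every other array lay between 8.16 and 8.67. Leaving out KO 1 and SNP 1 gave -0.018 ± 0.20 for Ttk, -0.055 ± 0.19 for Bub1, -0.53 ± 0.26 for Cdc20 and -0.61 ± 0.23 for Bub1b.

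The mitotic kinases Aurora A (Aurka), Aurora B (Aurkb) and Plk1 overlapped between SNP and WT, with differences of -0.58 ± 0.30, -0.20 ± 0.27 and -0.41 ± 0.41. Aurkb was at 8.21, 8.37 and 8.63 in WT, 7.93, 8.57 and 8.56 in KO, 7.61, 7.997 and 7.97 in wtKI, and 8.02, 8.69 and 7.90 in SNP. Its wtKI values were the low ones, below all WT values. Birc5 (survivin), which works with Aurora B, was at 8.99, 8.69 and 8.996 in WT, 8.44, 9.04 and 8.68 in KO, 8.32, 8.75 and 8.38 in wtKI, and 8.89, 8.21 and 8.26 in SNP. It was lower on 2 of 3 wtKI and 2 of 3 SNP arrays, and on SNP 1 it was within the WT range. On the 10 arrays SNP minus WT was -0.76 ± 0.30 for Aurka, -0.11 ± 0.26 for Aurkb, -0.35 ± 0.46 for Plk1 and -0.66 ± 0.21 for Birc5.

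Motor and kinetochore genes showed a different order of the genotypes. Kif23, a motor of the central spindle, was at 8.89, 8.77 and 9.05 in WT, 8.10, 8.73 and 8.53 in KO, 8.76, 8.91 and 8.60 in wtKI, and 8.87, 9.22 and 8.94 in SNP. KO was below WT and below SNP without overlap, and KO 1 was lowest. Kif11, the motor that separates the spindle poles, was at 9.05, 8.99 and 9.18 in WT, 9.32, 8.93 and 9.17 in KO, 8.74, 8.90 and 8.67 in wtKI, and 8.71, 9.24 and 8.81 in SNP. The wtKI values were the lowest group and lay below WT without overlap.

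The kinetochore motor Cenpe was at 8.59, 8.70 and 8.35 in WT, 8.11, 8.27 and 8.51 in KO, 8.54, 8.79 and 8.69 in wtKI, and 8.44, 8.84 and 8.52 in SNP. All 3 KO values lay below all wtKI values. Cenpf, another kinetochore protein, was at 8.28, 8.38 and 8.27 in WT, 7.83, 7.96 and 7.92 in KO, 7.998, 8.36 and 7.55 in wtKI, and 8.14, 8.57 and 7.75 in SNP. Its KO values were close together and below all WT values, while the wtKI and SNP values were scattered.

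Tpx2, a spindle assembly factor, was at 8.66, 8.40 and 8.55 in WT, 8.41, 8.31 and 8.78 in KO, 8.40, 8.72 and 8.51 in wtKI, and 8.40, 8.27 and 7.96 in SNP. The SNP values lay below all WT and all wtKI values, SNP 1 only just, with SNP minus WT at -0.33 ± 0.20 (limma adjusted p = 0.436). Nusap1, a spindle-binding protein, spanned 0.46 over the 12 arrays, the narrowest range of the mitotic class, and SNP minus WT was -0.21 ± 0.19.

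In SNP against WT, which sets both the knock-in and the variant against mouse Gfi1, 36 of the 41 genes had a lower mean in SNP, 20 of 22 replication genes and 16 of 19 mitotic genes, beside 51% of all genes tested. The genes with a higher mean were Ccne1 and Rrm2 among the replication genes and Mki67, Kif23 and Cenpe among the mitotic genes. With KO 1 and SNP 1 left out the same 3 mitotic genes were higher, and Cdc45 and Pola1 in place of Ccne1 and Rrm2. The median difference was -0.47 for replication genes, -0.23 for mitotic genes and -0.01 for all genes. With the dimmest 30% of genes left out, which kept all 41 members, the median of the genes kept was -0.09. Differences in replication genes ran from -1.04 ± 0.42 for Mcm2 to 0.08 ± 0.27 for Ccne1, and in mitotic genes from -0.98 ± 0.38 for Cdc20 to 0.50 ± 0.21 for Mki67.

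No gene of any kind passed the adjusted threshold in SNP against WT (0 of 14179, 0%), while 905 were higher and 1180 lower at an unadjusted limma p of 0.05, and the smallest limma adjusted p of a member was 0.275. At that unadjusted p, 7 replication genes (Mcm2, Mcm3, Mcm5, Mcm6, Gins2, Rfc3 and Rfc4) and 3 mitotic genes (Bub1b, Cdc20 and Ccna2) were lower, beside 8.32% of all genes, and Mki67 was higher, beside 6.38%. With the dimmest 30% of genes left out, 10.5% of the genes kept were lower at it, and these member counts were the same. The groups lay apart, with SNP lower, in 8 replication and 4 mitotic genes, beside 12% of all genes, and with SNP higher in Mki67, beside 11.6%. The replication count at the unadjusted p was 1 without SNP 1, 2 without WT 1 and 4 without WT 3. Beside these counts, 5.15%, 5.25% and 5.65% of all genes were lower at it. The replication count was 5 with a term for low Y-linked levels (5.82% of all genes), 8 without KO 1 (10.6%) and 9 without SNP 2 (12.8%). It was 6 without both KO 1 and SNP 1, where 7.84% of all genes were lower at that p. These 6 were not all the same genes: Mcm3, Rfc3 and Rfc4 left the count, and Cdc6 and Tyms entered it. The mitotic count without both arrays was 4, where Cdc20 left and Aurka and Birc5 entered. The mitotic count was 1 without WT 1 (5.25% of all genes), 1 without SNP 3 (9.2%) and 1 with the brightest probe set (5.81%). With array weights it was 6 (9.79%). Mki67 missed the unadjusted p with the Y-linked term, without SNP 1, SNP 2, WT 2 or WT 3, and on the 10 arrays. It also missed that p with median polish, with the mean of probe sets and with the brightest probe set in place of the median. The same held when only the groups compared were fitted and with array weights. Without both KO 1 and SNP 1 the medians were -0.28 for replication and -0.15 for mitotic genes, lower means were seen in 20 of 22 and 16 of 19 genes, beside 50.6% of all genes, and the groups lay apart with SNP lower in 9 and 6 genes, beside 16.7% of all genes. Mcm5, Gins2 and Bub1b differed by -0.56 ± 0.22, -0.55 ± 0.21 and -0.61 ± 0.23 on these 10 arrays (limma adjusted p = 0.301, 0.289 and 0.282). The B-lineage markers, with mean levels of 3.56, 0.47 and 0.69 on SNP 1 to SNP 3, and the T and NK cell markers, with 2.23, 0.17 and 0.35 against -0.13 to 0.12 on WT, moved with this comparison, and their part in it was not tested. On SNP 2 and SNP 3 the B-lineage medians were 0.21 and 0.53, and the T and NK cell medians 0.11 and 0.41.

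**Figure D4:**
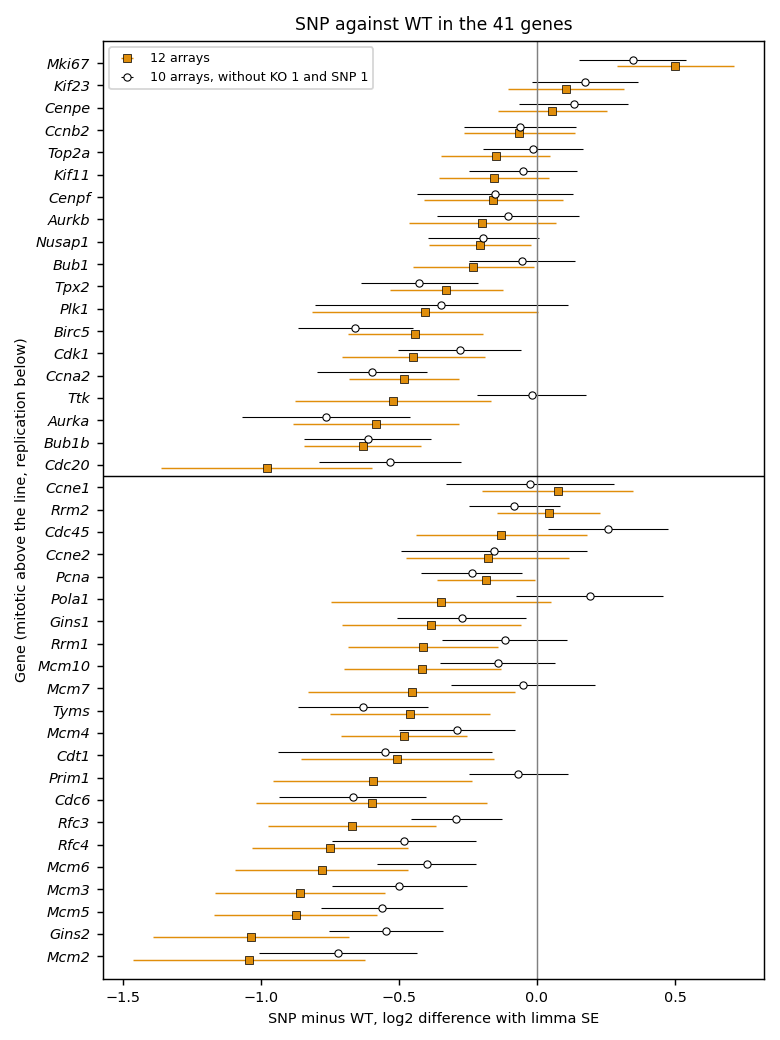
Log2 difference SNP minus WT (horizontal axis) of each of the 41 genes with its limma SE, from all 12 arrays (filled squares) and from the 10 arrays without KO 1 and SNP 1 (open circles), replication genes below the line and mitotic genes above it. Most points lie left of 0, and without the 2 arrays the replication genes with the largest differences move toward 0, as Gins2 does from -1.03 to -0.55.

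In SNP against wtKI, which sets the variant against the common form of human GFI1, helicase genes were again the lowest in SNP and Mki67 was again higher, and most differences were smaller without SNP 1. Lower means were seen in 18 of 22 replication genes and 12 of 19 mitotic genes, beside 52.2% of all genes, with medians of -0.27 and -0.11. At the unadjusted p, Mcm2, Mcm3, Mcm5 and Gins2 were lower, with differences of -0.94 ± 0.42, -0.70 ± 0.31, -0.71 ± 0.29 and -0.85 ± 0.35, beside 4.91% of all genes, and Mki67 was higher, beside 4.01%. With a term for low Y-linked levels, which are found on 2 of 3 wtKI arrays and on no SNP array, no member reached the unadjusted p, and the same held without wtKI 1 and without wtKI 2. In these 3 settings 1.6%, 4.26% and 2.39% of all genes were lower at it. The count of lower replication genes was 2 without WT 1, WT 3, KO 2 or wtKI 3, beside 4.25%, 4.25%, 4.33% and 3.64% of all genes. It was 6 without SNP 2, beside 9.73%. Cdc20 and Tpx2 followed among the mitotic genes at -0.73 ± 0.38 and -0.34 ± 0.20. The groups lay apart with SNP lower in Mcm2, Mcm6, Pcna, Rfc3 and Tpx2, beside 7.09% of all genes, and with SNP higher in Mki67, beside 7.07%. No member passed the adjusted threshold (smallest limma adjusted p 0.554), which 1 gene of 14179 passed (0.00705%). Without KO 1 and SNP 1, lower means were seen in 13 of 22 and 9 of 19 genes, beside 50.3% of all genes, and the medians were -0.07 and 0.00. No member was then lower at the unadjusted p, beside 4.73% of all genes, with Mcm2 at -0.62 ± 0.29, Gins2 at -0.36 ± 0.21 and Mki67 at 0.32 ± 0.19.

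In KO against WT, the loss of mouse Gfi1, both classes were slightly lower and the difference was much smaller without KO 1. Lower means were seen in 18 of 22 replication genes and 15 of 19 mitotic genes, beside 52.7% of all genes, with medians of -0.29 and -0.17. Over all 12 arrays not one member reached an unadjusted p of 0.05, beside 2.22% of all genes that were lower and 2.58% that were higher at it. The smallest p-values of the classes belonged to Kif23, Bub1b and Cenpf, at -0.45 ± 0.21, -0.38 ± 0.21 and -0.41 ± 0.25, and to Tyms, Cdc45 and Cdc6, at -0.54 ± 0.29, -0.50 ± 0.31 and -0.68 ± 0.42, all with limma adjusted p = 0.9999. The groups lay apart with KO lower in 6 replication genes (Cdc45, Mcm5, Mcm6, Pola1, Prim1 and Rfc3) and 4 mitotic genes (Ccna2, Cdk1, Kif23 and Cenpf), beside 5.78% of all genes, and with KO higher in Ccne1, beside 5.64%. One gene of 14179 passed the adjusted threshold (0.00705%), and it was no member. SNP 1 enters the shared spread behind these p-values. Without it 3 replication genes were lower at the unadjusted p, beside 3.38% of all genes. Without KO 3, 2 replication genes were lower (4.42%), and with array weights 2 mitotic and 1 replication gene (8.63%). Without both KO 1 and SNP 1 no member was lower at it (3.15%). Without KO 1 and SNP 1 the medians were -0.09 and -0.03, lower means were seen in 15 of 22 and 12 of 19 genes, beside 52.5% of all genes, Cdc6 differed by -0.10 ± 0.27 and Kif23 by -0.28 ± 0.19. The mast cell, basophil and eosinophil markers, with 9 or 10 of 10 above the WT mean on each KO array, and the stem and early progenitor markers, with 8 of 9 on each, moved with this comparison. The T and NK cell markers had means of 0.32, 0.52 and 0.52 on KO 1 to KO 3, with 6, 3 and 5 of 6 above the WT mean. Their medians were smaller, at 0.16, 0.06 and 0.15, and Thy1 had group means of 7.41 in KO and 5.47 in WT. The late neutrophil markers were low on KO 2 and KO 3, with 4 and 3 of 14 above the WT mean, and the part of these lists in the comparison was not tested.

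In wtKI against WT, the exchange of mouse Gfi1 for the common human form, both classes were slightly lower, and neither KO 1 nor SNP 1 enters the means. Lower means were seen in 20 of 22 replication genes and 15 of 19 mitotic genes, beside 51.2% of all genes, with medians of -0.16 and -0.23. The order of the classes rested on wtKI 1, without which the medians were -0.20 for replication and -0.15 for mitotic genes. Aurkb, Bub1b and Birc5 had the smallest p of the mitotic class, at -0.55 ± 0.27, -0.41 ± 0.21 and -0.41 ± 0.25, and Rfc4, Cdt1 and Rrm2 of the replication class, at -0.51 ± 0.28, -0.53 ± 0.35 and -0.24 ± 0.19. None of these reached the unadjusted p, which 1.41% of all genes did with a lower and 1.86% with a higher level, and their limma adjusted p was 0.9998. KO 1 and SNP 1 do enter the shared spread behind these p-values. Without them 1 mitotic gene was lower at the unadjusted p, beside 3.54% of all genes (smallest limma adjusted p of a member 0.667). Fitting only the groups compared gave 2 mitotic and 1 replication gene lower at it, beside 3.14% of all genes. The groups lay apart with wtKI lower in Mcm6, Rrm2, Rfc3, Rfc4, Aurkb, Bub1b and Kif11, beside 6.48% of all genes. One gene passed the adjusted threshold (0.00705%) and it was no member. The stem and early progenitor markers, above the WT mean in 7 or 8 of 9 genes on every wtKI array, moved with this comparison, as did the low Y-linked levels on wtKI 2 and wtKI 3, and the part of the markers was not tested. With a term for low Y-linked levels the medians were -0.18 and -0.21.

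Because KO minus WT, wtKI minus WT and SNP minus WT share the 3 WT arrays, their common direction is not independent evidence. In the sense of values side by side, Bub1b was at -0.38 ± 0.21, -0.41 ± 0.21 and -0.63 ± 0.21, Mcm6 at -0.38 ± 0.31, -0.18 ± 0.31 and -0.78 ± 0.31, and Rfc3 at -0.48 ± 0.30, -0.09 ± 0.30 and -0.67 ± 0.30. Mki67 was at 0.04 ± 0.21, 0.02 ± 0.21 and 0.50 ± 0.21.

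In SNP against KO, Mcm3, Rfc4 and Gins2 were lower in SNP and Kif23 was higher at the unadjusted p. Their differences were -0.89 ± 0.31, -0.74 ± 0.28, -0.84 ± 0.35 and 0.56 ± 0.21 (limma adjusted p = 0.329, 0.371, 0.407 and 0.370), beside 6.67% of all genes lower and 4.67% higher. The groups lay apart with SNP lower in Mcm3, Mcm4 and Rfc4, beside 7.05% of all genes, and with SNP higher in Kif23, beside 6.53%. Mki67 and Cdc20 followed at 0.46 ± 0.21 and -0.80 ± 0.38. Lower means were seen in 19 of 22 replication genes and 14 of 19 mitotic genes, beside 48.9% of all genes, with medians of -0.20 in both classes. Without KO 1 and SNP 1 the medians were -0.32 and -0.20, lower means were seen in 18 of 22 and 13 of 19 genes, beside 49.7% of all genes, and the differences of Mcm3 and Kif23 were -0.48 ± 0.27 and 0.45 ± 0.21. Other members were then past the unadjusted p, Aurka and Birc5 lower at -0.83 ± 0.33 and -0.63 ± 0.23, beside 7.24% of all genes, and Cdc45 higher at 0.65 ± 0.24, beside 6.33%. The count of replication genes lower at it was 0 without SNP 1 (4.98% of all genes), 1 without KO 2 (5.08%) and 7 without SNP 2 (10.3%). No member passed the adjusted threshold, which 2 genes passed (0.0141%). With the replicate number as a block, which pairs the arrays of these groups, 0 genes passed. At the unadjusted p 3 replication genes were then lower, beside 6.91% of all genes. At the same p 2 mitotic genes were higher, for which the share of all genes is not given. The mast cell, basophil and eosinophil markers had means of 1.37, 1.01 and 0.93 on KO 1 to KO 3. On SNP 1 to SNP 3 these means were 0.33, -0.26 and 0.28, and the part of these markers was not tested.

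In KO against wtKI the classes had no common direction. Lower means were seen in 12 of 22 replication genes and 7 of 19 mitotic genes, beside 52.5% of all genes, with medians of -0.04 and 0.03. Over all 12 arrays no member reached the unadjusted p, which 2.38% of all genes did with a lower and 2.19% with a higher level. The smallest p-values were those of Rrm2, Ccne2 and Cdc45, at 0.37 ± 0.19, 0.54 ± 0.30 and -0.56 ± 0.31, and of Cenpe, Aurkb and Kif11, at -0.38 ± 0.20, 0.50 ± 0.27 and 0.37 ± 0.20 (limma adjusted p = 0.9997 for each). The groups lay apart with KO higher in Kif11, Ccne2, Mcm3, Rrm2 and Rfc4, beside 5.36% of all genes, and with KO lower in Cenpe, Cdc45, Prim1 and Rfc3, beside 5.1%. No gene passed the adjusted threshold in this comparison (0 of 14179, 0%), where 310 genes were higher and 338 lower at the unadjusted limma p. SNP 1 enters the shared spread here too. Without it 2 replication genes were lower at that p, beside 3.52% of all genes. Without KO 1 and SNP 1 the medians were 0.14 and 0.12, lower means were seen in 7 of 22 and 7 of 19 genes, beside 51.2% of all genes, and Rrm2 and Aurkb were higher at the unadjusted p, by 0.47 ± 0.17 and 0.71 ± 0.26, beside 3.98% of all genes. Low Y-linked levels were found on wtKI 2 and wtKI 3 and on no KO array. With a term for them the medians were -0.08 and 0.03. The mast cell, basophil and eosinophil means were 1.37, 1.01 and 0.93 on KO 1 to KO 3. On wtKI 1 to wtKI 3 they were -0.16, 0.01 and 1.12, and the part of these markers was not tested.

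Other genes of the same processes were read from 8 further lists, beside the members. In SNP against WT, all 12 measured nucleotide supply genes had a lower mean, with a median of -0.77 (-0.39 without KO 1 and SNP 1), and 5 were lower at the unadjusted p, where 51% of all genes had a lower mean and 8.32% were lower at that p. They included Umps and Cad, of pyrimidine synthesis, at -1.18 ± 0.35 and -0.71 ± 0.27, Ctps, CTP synthase, at -0.86 ± 0.37, and the mitochondrial one-carbon enzyme Shmt2 at -0.86 ± 0.26, and on the 10 arrays these differences were -0.68 ± 0.21, -0.44 ± 0.25, -0.46 ± 0.21 and -0.73 ± 0.25. Of 24 further polymerase, clamp and fork genes 21 had a lower mean (median -0.50, and -0.29 without KO 1 and SNP 1), 5 at the unadjusted p, among them Pola2, a subunit of polymerase alpha, at -1.07 ± 0.39 and the flap nuclease Fen1 at -0.77 ± 0.27. The median of 21 further licensing and helicase genes was -0.28 and 0.01 without KO 1 and SNP 1, with Gins4 at -1.30 ± 0.47 (-0.61 ± 0.25 on the 10 arrays) and Orc1, of the origin recognition complex, at -0.92 ± 0.35, while Cdc7, the kinase that fires origins, was higher by 0.71 ± 0.31.

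The further mitotic lists had smaller medians in SNP against WT. The 26 kinetochore and checkpoint genes had a median of -0.21 with 6 lower and 1 higher at the unadjusted p, beside 8.32% and 6.38% of all genes, and a median of -0.25 without KO 1 and SNP 1. The 32 spindle, cytokinesis and kinase genes had a median of -0.21 with 2 lower (6.25%), and without KO 1 and SNP 1 the median was -0.08, with 17 lower and 15 higher means. The 15 condensin and cohesin genes had a median of -0.15 with 2 lower and 1 higher, and of -0.10 without these arrays. Cdca5 (sororin), which protects cohesion, differed by -1.10 ± 0.25 (limma adjusted p = 0.235), the smallest p of the cell cycle genes read here, and by -1.02 ± 0.24 on 10 arrays. Sgo2a, which guards centromeric cohesion, differed by -0.69 ± 0.20, Racgap1, a cytokinesis regulator, by -0.80 ± 0.22, and Kif2c, a microtubule-depolymerising motor, by -1.03 ± 0.30. Knl1, a kinetochore scaffold, was higher by 0.46 ± 0.18. None of the genes in the 8 lists passed the adjusted threshold in any of the 6 comparisons.

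Regulators of cell cycle entry differed most for Ccnd2, the gene of cyclin D2. Its KO minus WT difference was -1.34 ± 0.36 (limma adjusted p = 0.598) with no overlap, -1.01 ± 0.23 without KO 1 and SNP 1, and SNP minus WT was -1.03 ± 0.36. Cdk4, a partner of D-type cyclins, had a SNP minus WT difference of -0.77 ± 0.28. The SNP minus WT differences of both genes, with KO 1 and SNP 1 left out, were -0.66 ± 0.23 and -0.45 ± 0.19, and the median of the 19 cyclin, CDK and E2F genes of this list was 0.02 in place of -0.31. The CDK inhibitor gene Cdkn1c was higher in SNP than in WT by 0.99 ± 0.31 with no overlap, and 15 inhibitors, pocket proteins and anti-proliferative genes had a median of -0.03. Cdc25b, the phosphatase that activates Cdk1, was higher in KO than in WT by 1.02 ± 0.39, or 0.63 ± 0.36 without KO 1 and SNP 1, and its SNP minus KO difference was -1.33 ± 0.39. Btg1, an anti-proliferative gene, was higher in SNP than in wtKI by 1.79 ± 0.67, and by 0.97 ± 0.53 without KO 1 and SNP 1.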

How the data were processed

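The authors deposited log2 signals of exon-level probe sets, for which the submitters' processing notes name RMA without a version or settings. All 105661 probe sets reach at least 6.14 on some array, so a selection had been made before deposit, in a way not stated. Probe sets with 1 gene symbol (98975; 1703 have several and 4983 none) were summarised by their median into 14179 genes, with symbols updated through a RefSeq table of GRCm38.p6, which held 14146 of them. Rows with several symbols, which 4 members (Rfc4, Ccna2, Ccne2 and Tyms) also have, were not used. The deposited arrays do not share one distribution at the low end (the 5th percentile runs from 4.36 to 5.65), and signals near background understate differences.

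The 6 comparisons were fitted over all 12 arrays by lmFit and eBayes of limma 3.58.1 (R 4.3.3), with no covariate and with Benjamini-Hochberg adjustment over all genes and a threshold of 0.05. The code was tested on simulated data. The number of arrays, 3 per group, limits the precision. The members, the lists and the rule for named genes were chosen with earlier results of these data known, so counts and medians over a list carry no test. Written out were members with an unadjusted p under 0.05 or, where a class had fewer than 3, the 3 smallest p of the class, the anchors Mki67, Top2a, Cdk1, Mcm2, Mcm5, Cdc6 and Pcna, and at most 4 genes of each other list. "Apart" means that the values of both groups do not overlap. The array labels share replicate numbers between groups. Deviations of same-numbered arrays correlated at 0.34, 0.19 and 0.14 for SNP and KO, and at least 1 of the 3 correlations was under 0.1 in each other comparison. By the threshold of 0.1 this was taken as pairing for SNP and KO. No label states such pairing, and the value of 0.34 is that of KO 1 with SNP 1, the arrays that stood apart. The SNP minus KO differences, SEs and p-values of genes are from the fit without the block. Alternatives covered the summary of probe sets, normalization, filtering, the model, array weights, the replicate block, a term for low Y-linked levels and leaving out arrays.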

Additional observations from a re-analysis of the deposited data

How the results depend on the processing

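No member passed the adjusted threshold in any of the 6 comparisons under the 24 alternative settings, and the smallest limma adjusted p of a member was 0.081 (KO minus wtKI with array weights). Of 1056 alternative values, 975 kept direction and call. Of these, 480 were for named members and covered only part of the members and comparisons described above. In that part 478 did, and the 2 that reversed were Ccna2 (0.019) and Bub1b (0.073) in SNP minus WT with the brightest probe set. Outside it members reversed too, as Cdc45, Pola1, Rrm2 and Ccne1 did in SNP minus WT without KO 1 and SNP 1. The other changes among the 1056 values were mainly in the count of genes called over all genes, and their cause was not tested. That count is 1 for KO minus WT, wtKI minus WT and SNP minus wtKI, 2 for SNP minus KO, and 0 for SNP minus WT and KO minus wtKI. With median polish the count was 0 for KO minus WT, wtKI minus WT and SNP minus wtKI. With the mean of probe sets it was 3 for KO minus WT, 0 for wtKI minus WT, 0 for SNP minus wtKI and 13 for SNP minus KO. With the brightest probe set it was 0 for KO minus WT, wtKI minus WT, SNP minus wtKI and SNP minus KO, and the medians moved to -0.040 for replication genes in wtKI minus WT and 0.018 for mitotic genes in SNP minus KO. Quantile normalization gave 3 for KO minus WT and 5 for SNP minus WT, and leaving out the dimmest 30% of genes, which kept all 41 members, gave 1 for SNP minus WT and 1 for SNP minus KO. Fitting only the groups compared gave 0 for wtKI minus WT, 0 for SNP minus KO and 1 for KO minus wtKI, and the variance trend gave 1 for SNP minus KO. Array weights gave 131 for KO minus WT, 5 for wtKI minus WT, 5 for SNP minus WT, 97 for SNP minus KO and 133 for KO minus wtKI. The replicate block gave 0 for KO minus WT, 0 for SNP minus wtKI and 0 for SNP minus KO, and it changed no call of a member. The term for low Y-linked levels gave 0 for KO minus WT, SNP minus wtKI and SNP minus KO. Without KO 1 and SNP 1 together the count was 9 for KO minus WT, 2 for wtKI minus WT, 1 for SNP minus KO and 1 for KO minus wtKI, and the mitotic median of KO minus WT was -0.025. Leaving out 1 array at a time gave 0 to 9 genes for KO minus WT, 0 to 2 for wtKI minus WT, SNP minus WT and SNP minus wtKI, 0 to 3 for SNP minus KO and 0 to 1 for KO minus wtKI, and mitotic medians of -0.24 to -0.025 for KO minus WT.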
